A study of Homo sapiens with 4 samples.

Results

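The RNA-seq data of MIB1-iKO cells were examined for 10 genes that encode ligands of the TGF-β family: BMP2, BMP4, BMP6, BMP7, GDF11, INHBA, INHBB, TGFB1, TGFB2 and TGFB3. They were chosen by name as BMP, activin and TGF-β ligands, and all 10 were found among the 58302 genes counted. The cells were NCI-H838, an established human non–small cell lung cancer line, carrying a doxycycline (dox)-inducible Cas9 and a guide RNA against MIB1 on a transposon, and grown from a single-cell clone. MIB1 encodes an E3 ubiquitin ligase best known for its role in Notch ligand endocytosis. The 4 samples were all taken at day 3 under basal BMP signaling: 2 without dox and 2 with 0.5 μg/mL dox, each pair described by the study as biological replicates. All 4 carried the same transposon, and the labels do not give the guide. Because dox was given in the knockout group and in no guide-free cells among these samples, the effects of dox and of MIB1 loss cannot be told apart. The questions asked were which ligands the cells supply themselves, and whether that supply differed with dox.

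Ligands of this family are made as precursors, cut by proprotein convertases, and secreted as dimers that bring together type I and type II receptor kinases. BMP2, BMP4, BMP6 and BMP7 act mainly through SMAD1/5/9. The TGF-β isoforms, GDF11, and the activins, which are dimers of the inhibin β subunits encoded by INHBA and INHBB, act mainly through SMAD2/3. TGF-β isoforms leave the cell in a latent form that must be activated, whereas several BMPs are held back by secreted antagonists such as noggin. RNA-seq reports the transcript of the producing cell, and neither the protein nor ligand that arrives with serum is measured by it.

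Without dox the libraries held 24398411 and 21207419 counts, and with dox 15943025 and 17048990, so depth was lower in both dox samples. Reads of MIB1 itself were 598, 588, 90 and 59 in no dox replicates 1 and 2 and dox replicates 1 and 2. Its RPKM, a level per kilobase of gene model and per unit of depth, was 2.73 ± 0.104 (SD, n = 2) without dox and 0.478 ± 0.196 with dox. On the log2 scale MIB1 fell by 2.58 (adjusted p = 0.000375 in limma). In bulk RNA, fewer cells expressing a gene and less RNA per cell cannot be told apart, here or for any ligand. Of 5 epithelial markers, 4 were tested and none was called, and KRT19 had 0 reads. Their summed RPKM was 82.9 to 91.5 without dox and 67.1 to 72.2 with dox. The lower sum lay in KRT8 (22.6 and 17.4 RPKM without and with dox) and KRT18 (51.9 and 38.1), whereas the means of EPCAM (9.72 and 10.6) and CDH1 (3.04 and 3.58) were higher with dox, and the part of these differences in the ligand values was not tested. Of 5 lung lineage markers, NKX2-1, SFTPB and SCGB1A1 had 0 reads in every library, and SFTPC and NAPSA had 2 to 8. Among markers of other cell types, PTPRC, COL1A2, KDR and TIE1 had 0 reads, endothelial sums reached at most 0.121 RPKM, and LUM and CD14 were the highest of the fibroblast and leukocyte lists, at 1.34 to 2.31 and 4.17 to 4.45 RPKM.

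The SMAD1/5/9-type ligand transcript of these cells was mostly BMP6. BMP6 (ENSG00000153162, GRCh38 chr6:7726099-7881728, plus strand), a ligand known for its part in iron homeostasis and bone, stood at 11.9 and 13.9 RPKM in no dox replicates 1 and 2 and at 10.1 and 12.1 in dox replicates 1 and 2. These values rest on 780, 847, 430 and 611 reads. The groups overlapped, because dox replicate 2 lay above no dox replicate 1. BMP6 had the highest RPKM of the 10 ligands in every library, and ranked above 81.6% to 84.5% of the genes with reads.

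BMP4 (ENSG00000125378, chr14:53949736-53958761, minus strand), a close relative of BMP2 and a patterning signal of the embryo, was the next BMP. It measured 1.34 and 1.67 RPKM without dox and 0.998 and 1.31 with dox, from 66, 77, 32 and 50 reads. Both dox values lay below both no dox values, by a margin at the nearest pair of 1.34 against 1.31. The BMP6 to BMP4 ratio of RPKM was 8.94 and 8.33 without dox and 10.2 and 9.25 with dox.

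BMP2 (ENSG00000125845, chr20:6767686-6780246, plus strand), an osteoinductive ligand, gave 18, 12, 4 and 20 reads, or 0.213, 0.152, 0.0729 and 0.306 RPKM. The dox libraries held both the lowest and the highest value. BMP7 (ENSG00000101144, chr20:57168753-57266641, minus strand), a ligand needed for kidney development, gave 7, 5, 7 and 8 reads, or 0.0706, 0.0542, 0.109 and 0.105 RPKM. Its RPKM was higher in both dox libraries, at counts too low to enter the test.

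Among the SMAD2/3-type ligands, TGFB1 and TGFB3 led. TGFB1 (ENSG00000105329, chr19:41301587-41353922, minus strand), the isoform most studied in fibrosis and immune regulation, measured 8.64 and 9.97 RPKM without dox and 8.84 and 9.62 with dox, from 562, 604, 373 and 483 reads. Both dox values lay between those of the no dox libraries. TGFB3 (ENSG00000119699, chr14:75958097-75983011, minus strand), an isoform needed for palate fusion, measured 5.14 and 6.30 RPKM without dox and 4.94 and 6.14 with dox, and the groups overlapped. TGFB2 (ENSG00000092969, chr1:218345336-218444619, plus strand), the isoform that binds its receptors best with betaglycan, was far lower. It stood at 0.817 and 0.678 RPKM without dox and 0.441 and 0.666 with dox, from 97, 75, 34 and 61 reads. The dox values were the lower pair, again with a narrow margin between the nearest samples.

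GDF11 (ENSG00000135414, chr12:55743122-55757264, plus strand), a relative of myostatin that patterns the axial skeleton, measured 1.01 and 0.744 RPKM without dox and 0.864 and 0.580 with dox. Here the first replicate was the higher sample in both groups. The activin subunits were nearly absent from the libraries. INHBA (ENSG00000122641, chr7:41667168-41705834, minus strand), the βA subunit, gave 3, 6, 1 and 1 reads, and INHBB (ENSG00000163083, chr2:120346136-120351803, plus strand), the βB subunit, gave 0 reads in all 4. At these depths a count of 0 allows up to 3 reads, equal to 0.123 to 0.188 CPM (counts scaled by the total of the library), a limit that covers counting error only.

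**Figure D1:**
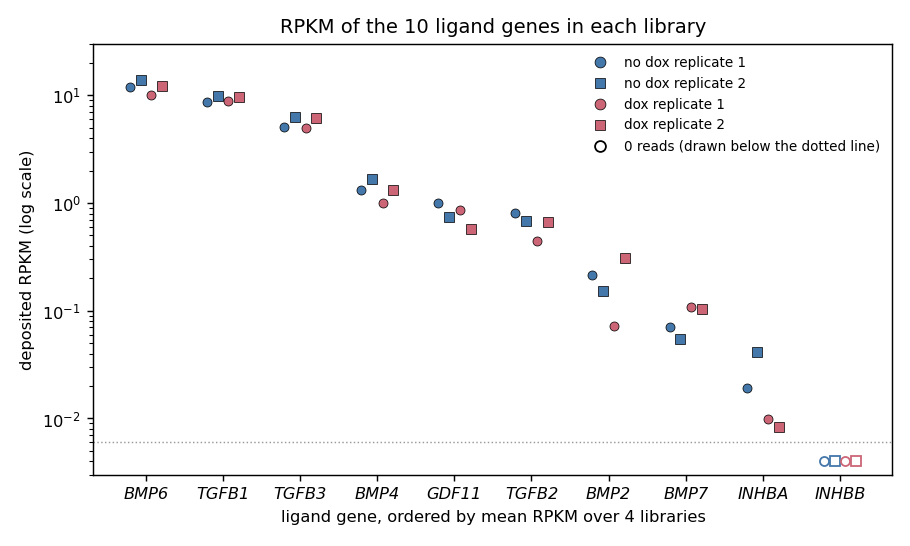
Deposited RPKM on a log axis for the 10 ligand genes, ordered by their mean over 4 libraries, with a point for each library (circles, replicate 1; squares, replicate 2; blue, no dox; red, dox). BMP6, TGFB1 and TGFB3 lie between 4.94 and 13.9 RPKM in all 4 libraries, INHBA lies below 0.05 RPKM, and INHBB has 0 reads.

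Because RPKM is a level per length, the ligands can be set in order. The mean RPKM over the 4 libraries was 12.03 for BMP6, 9.27 for TGFB1, 5.63 for TGFB3, 1.33 for BMP4, 0.799 for GDF11, 0.651 for TGFB2, 0.186 for BMP2, 0.0846 for BMP7, 0.0198 for INHBA and 0 for INHBB. The ranges over libraries of BMP4 and GDF11, of GDF11 and TGFB2, and of BMP2 and BMP7 overlapped, so those neighbours did not differ beyond their spread. In the deposited RPKM, TGFB2 exceeded GDF11 in dox replicate 2 and BMP7 exceeded BMP2 in dox replicate 1. Every other neighbour kept its place in every library on that scale. The first step down, from BMP6 to TGFB1, was a ratio of 1.38, 1.40, 1.15 and 1.26 in the 4 libraries. It depended on the gene model: with the summed exon length of GENCODE in place of the authors' gene model, the ratio ran from 0.994 to 1.21, and the ranges of BMP6 and TGFB1 overlapped. The ranges also overlapped with RPKM rescaled to total counts. That rescaling multiplies every gene of a library by the same factor, so it cannot change the ratio within a library. Lower steps also depended on the gene model. With summed exon length, the ratio of BMP4 to GDF11 ran from 0.798 to 1.56, with BMP4 below GDF11 in both replicate 1 libraries. The ratio of TGFB1 to TGFB3 ran from 2.50 to 2.86, against 1.57 to 1.79 in the deposited RPKM. The largest step among the 6 leading ligands was from TGFB3 to BMP4. Its ratio was 3.77 to 4.95 in the deposited RPKM and 2.95 to 3.87 with summed exon length.

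Seen as shares of the summed RPKM of the 10 ligands, BMP6, TGFB1 and TGFB3 together made up 88.1% to 90.6% of a library. The sums were 29.2 and 33.5 RPKM without dox and 26.4 and 30.9 with dox, and they overlapped. BMP6 held 40.9% and 41.5% without dox and 38.4% and 39.3% with dox. TGFB1 held 29.6% and 29.7% without dox and 33.5% and 31.2% with dox. The 4 SMAD1/5/9-type ligands, BMP6 foremost, held 46.8% ± 0.454 (SD, n = 2) without dox and 43.9% ± 1.41 with dox, a difference of -2.92 percentage points. Both dox libraries lay below both no dox libraries, and the exact two-sided permutation test gave p = 0.333, the smallest p that 2 samples against 2 allow. The share of the 3 TGF-β isoforms, a sum chosen after the values were seen, was 50.0% and 50.5% without dox and 53.8% and 53.2% with dox, with the same exact permutation p of 0.333. Shares of a library add up to the whole, so this rise and the fall of the SMAD1/5/9-type share are not separate results. The mean RPKM of TGFB1 was 9.30 without dox and 9.23 with dox.

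**Figure D2:**
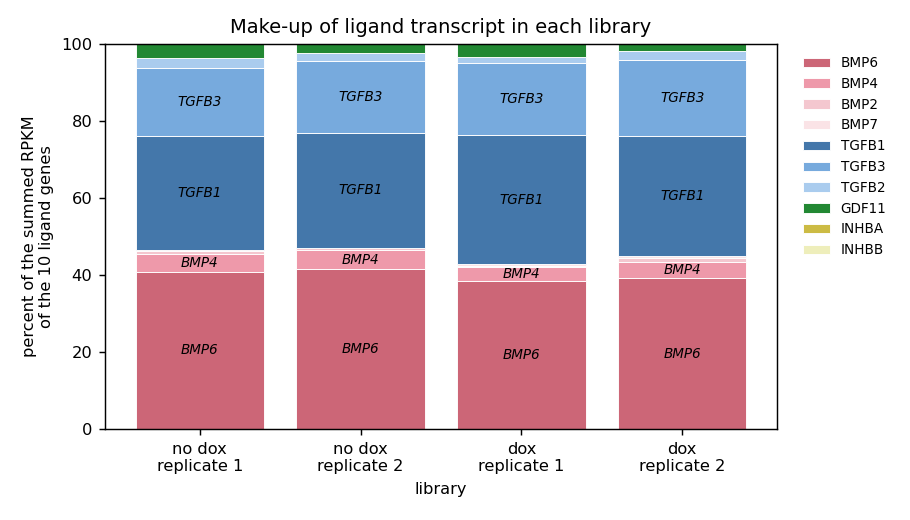
Stacked bars of the percent of the summed RPKM of the 10 ligand genes that each gene held in each of the 4 libraries, with SMAD1/5/9-type ligands in red shades, TGF-β isoforms in blue shades and GDF11 in green. The red block reaches 46.5% and 47.1% without dox and 42.9% and 44.9% with dox, and INHBA and INHBB are too small to see.

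Several ligand genes share exon bases with a gene on the opposite strand, and whether counting used strand is not given in the sources used here. BMP6 shares 212 exon bases with TXNDC5, TGFB1 shares 215 with HNRNPUL1 and GDF11 shares 378 with SARNP. HNRNPUL1 had 1361, 1501, 837 and 1174 reads and TXNDC5 had 304, 299, 167 and 254, in the order used above, and how reads in the shared bases were assigned is uncertain. BMP4 shares 506 with an opposite-strand lncRNA (ENSG00000287156) whose reads were not analysed here. TGFB2 shares 701 exon bases with TGFB2-AS1, which had 16 to 33 reads, and 1371 on its own strand with TGFB2-OT1, which had 0 reads in every library. INHBA and TGFB3 also have antisense partners that overlap their exons, INHBA-AS1 with 0 reads in every library and TGFB3-AS1 with at most 2.

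The 250 bases upstream of the RefSeq start are shown for the ligands at both ends of the order, the pair with the highest RPKM (BMP6, TGFB1) and the pair with the lowest (INHBA, INHBB), so that a reader can set the sequence beside the level. They are RefSeq sequences on GRCh38.p14, 5′ to 3′ on the strand of the gene, from a table that held 8 of the 10 genes and not BMP2 or BMP7. Capitals mark GGCGCC, a GC-rich letter run known to bind SMAD1/5, and TATAAA, the core of the TATA box, each searched on both strands. These motifs do not overlap each other here. BMP6 is chr6:7725849-7726098 (plus strand), TGFB1 is chr19:41353923-41354172 (minus), INHBA is chr7:41703091-41703340 (minus) and INHBB is chr2:120345886-120346135 (plus). The INHBA window lies inside the gene span given above, which is that of GENCODE, because the RefSeq start lies downstream of the GENCODE start.
BMP6: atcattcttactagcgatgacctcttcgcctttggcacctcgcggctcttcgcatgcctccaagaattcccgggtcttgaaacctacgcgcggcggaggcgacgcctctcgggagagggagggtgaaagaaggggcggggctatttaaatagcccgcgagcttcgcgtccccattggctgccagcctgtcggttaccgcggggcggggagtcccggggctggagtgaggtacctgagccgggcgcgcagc
TGFB1: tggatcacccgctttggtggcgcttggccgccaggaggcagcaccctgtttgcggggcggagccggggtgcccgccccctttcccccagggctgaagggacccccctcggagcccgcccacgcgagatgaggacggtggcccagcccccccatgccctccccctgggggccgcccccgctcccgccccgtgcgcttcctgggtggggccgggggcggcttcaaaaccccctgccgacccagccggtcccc
INHBA: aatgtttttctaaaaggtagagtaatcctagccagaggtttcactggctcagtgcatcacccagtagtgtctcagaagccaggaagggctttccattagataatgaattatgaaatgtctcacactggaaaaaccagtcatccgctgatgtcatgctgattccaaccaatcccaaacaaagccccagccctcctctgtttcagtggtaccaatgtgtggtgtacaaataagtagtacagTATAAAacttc
INHBB: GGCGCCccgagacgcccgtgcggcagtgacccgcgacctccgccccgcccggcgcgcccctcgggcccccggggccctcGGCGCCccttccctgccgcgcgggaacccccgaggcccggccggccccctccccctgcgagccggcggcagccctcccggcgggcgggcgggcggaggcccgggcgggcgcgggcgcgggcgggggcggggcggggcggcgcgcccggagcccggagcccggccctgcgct

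GC content was 64.4% in the BMP6 window, 76.8% in TGFB1, 42.8% in INHBA and 89.6% in INHBB, beside a median of 58.0% over 35116 such windows. The CpG count was 26, 21, 1 and 46 in that order, beside a median of 11. GGCGCC occurred 2 times in the INHBB window and in none of the other 3, and 16.4% of all windows hold it. TATAAA occurred in the INHBA window alone among the 4, and 10.7% of all windows hold it. The pair of scarce ligands thus had both the most GC-rich and the least GC-rich of these windows. Among the windows not shown, TATAAA also occurred in those of GDF11 and TGFB2 and in a window of TGFB3, the third ligand in the order. GGCGCC also occurred in a window of BMP4. Neither motif was confined to the scarce ligands.

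The comparison of dox with no dox addressed whether the supply of ligand transcript differed with dox. No ligand gene passed the test in either direction. Of the 10 genes, 7 had enough reads to be tested. BMP7, INHBA and INHBB did not. In the limma fit over 16181 genes, calling a gene required a 2-fold change and a Benjamini-Hochberg adjusted p no higher than 0.05. By that rule 0 of 7 ligand genes were called, where 0.0371% of all genes tested were, and by the adjusted p alone 0 of 7, where 0.068% were. At an unadjusted p under 0.05 the count was also 0 in limma, edgeR and DESeq2, where 9.28% of all genes passed in limma. The lowest adjusted p of a ligand gene was 0.663, for TGFB2. DESeq2 gave no adjusted p for 4 of the 7.

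How tightly the data bound a change depended on the level. For BMP6 the change estimated by limma was -0.19 in log2 units (SE 0.14, adjusted p = 0.738) with a 95% confidence interval of -0.49 to 0.12, or 0.711-fold to 1.09-fold. For TGFB1 it was 0.01, with an interval of -0.30 to 0.32, and for TGFB3 it was -0.01, with an interval of -0.39 to 0.36. GDF11 had a log2 fold change of -0.30 and an interval of -0.82 to 0.22. The intervals of these 4 ligands lay inside a 2-fold change in either direction. Those of BMP4 and TGFB2 reached past a 2-fold decrease: BMP4 had a log2 fold change of -0.39 (-1.03 to 0.26) and TGFB2 of -0.48 (-1.10 to 0.15). BMP2, at 4 to 20 reads, was bounded on neither side, at -0.26 (-1.56 to 1.03), and its estimate went from -1.43 without dox replicate 2 to 0.70 without dox replicate 1.

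Of the 7, 6 ligand genes had a log2 fold change below 0 and TGFB1 alone had one above 0, with a median of -0.26 over the 7 tested, beside 50.1% of all genes below 0 and a median of -0.0004. The sign of TGFB1 turned in edgeR, at -0.0041, and that of BMP2 turned in edgeR, at 0.11, and in DESeq2, at 0.09. BMP4 and TGFB2 were the 2 tested ligands whose RPKM did not overlap between groups, both lower with dox, where 20.5% of all genes tested were lower without overlap. In CPM, with no further scaling, 0 of the 7 were lower without overlap, where 17.4% of all genes tested were. On the quantile-normalized log2 CPM that limma tested, BMP4 and TGFB2 were again the ligands lower without overlap. The share of all genes was not counted on that scale. The separation thus came and went with the scaling per sample. Spread between replicates was of the size of these differences. In both groups replicate 2 exceeded replicate 1 for BMP6, TGFB1, TGFB3 and BMP4, by a ratio of RPKM of 1.17 and 1.19 for BMP6 and of 1.25 and 1.31 for BMP4, whereas the dox to no dox ratio of mean RPKM was 0.861 for BMP6.

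**Figure D3:**
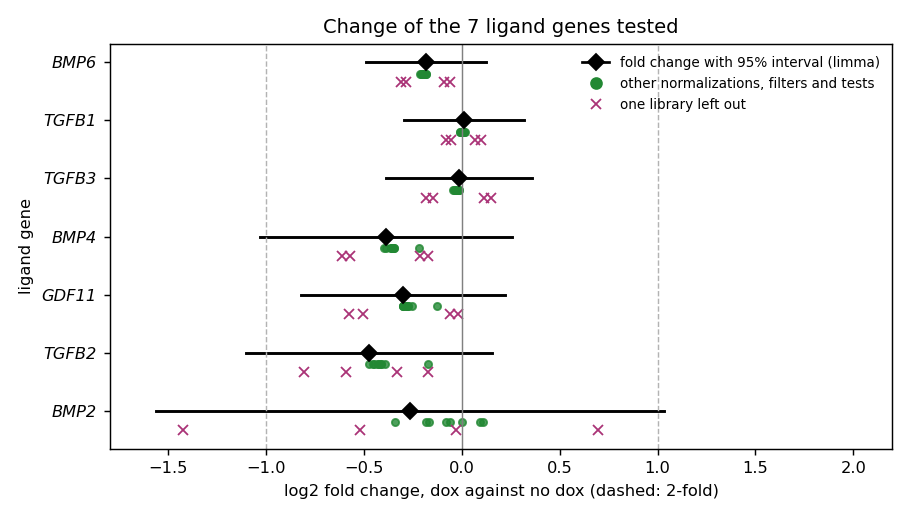
Log2 fold change, dox against no dox, of the 7 ligand genes tested, with black diamonds and lines for the limma estimate and its 95% interval, green points for other normalizations, filters and tests, and crosses for fits with 1 library left out. Every interval crosses 0, those of BMP6, TGFB1, TGFB3 and GDF11 stay within the dashed 2-fold lines, and the crosses of BMP2 spread from -1.43 to 0.70.

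Beyond the 10, the rest of the family gave little transcript. Of 23 other ligand genes, 13 had 0 reads in every library, among them GDF2, which encodes BMP9, and 18 had at most 5 reads in any library. The 3 with the highest RPKM were GDF15, a stress-induced relative, at 0.918 ± 0.0059 (SD, n = 2) without dox and 1.20 ± 0.394 with dox, INHA, the inhibin α subunit, at 0.377 ± 0.0826 and 0.370 ± 0.0453, and BMP8B at 0.237 ± 0.0398 and 0.103 ± 0.0654. By mean RPKM over the 4 libraries all 3 lay below BMP4, the fourth ligand in the order. GDF15, at 1.06, lay above GDF11, at 0.799. Within the dox group the mean of GDF15 was also above that of BMP4, which was 1.15. None of the 3 tested was called. BMP8B gave 30, 22, 11 and 5 reads, and limma estimated its change at -1.41 in log2 units (SE 0.52, adjusted p = 0.414).

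Among the genes that process and activate the ligands, FURIN, ITGAV, LTBP1, LTBP4 and LTBP3 had mean RPKM of 5.63 to 14.0, and the other 12 had at most 2.18. FURIN, the convertase that cuts pro-TGF-β and pro-BMPs, measured 10.1 ± 1.23 RPKM (SD, n = 2) without dox and 11.0 ± 0.876 with dox. PCSK6 and PCSK7, relatives of furin, followed at 2.26 ± 0.0444 and 1.56 ± 0.0289 without dox. Of 5 convertases 4 were tested and none was called. For the latent TGF-β complex, ITGAV, the αv integrin chain that helps release TGF-β, stood at 15.0 ± 0.496 and 12.9 ± 0.189 RPKM without and with dox. The latent TGF-β binding proteins LTBP1 and LTBP4 stood at 14.8 ± 1.64 and 9.46 ± 1.45 without dox. Of 12 genes of latency and activation 8 were tested and none was called, with a median log2 fold change of 0.16.

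On the list of extracellular antagonists and binding proteins, FSTL3 and TWSG1 stood above every ligand in every library. FSTL3, a follistatin relative that binds activins and GDF11, measured 46.4 ± 5.49 RPKM (SD, n = 2) without dox and 39.3 ± 0.734 with dox, and TWSG1, a BMP-binding modulator of chordin, measured 38.8 ± 0.700 and 36.1 ± 3.74. CHRDL2, a chordin relative, followed at 3.01 ± 0.289 and 3.29 ± 0.915. The summed RPKM of the 19 binding proteins was 88.6 and 97.6 without dox and 82.7 and 86.1 with dox, against 26.4 to 33.5 for the 10 ligands over the libraries. FSTL3 and TWSG1 gave most of the sum of the binding proteins. Its lower value in both dox libraries was not tested. None of the 7 binding proteins tested was called. BMP1, the protease that cuts chordin, measured 8.40 ± 0.480 and 6.72 ± 0.704, TLL2, a relative of it, 0.183 ± 0.0276 and 0.318 ± 0.0578, and TLL1 had 0 reads. Neither of the 2 proteases tested was called.

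On the receiving side, the 18 receptors and co-receptors summed to 56.5 to 66.8 RPKM. TGFBR3, the co-receptor betaglycan, was the highest at 30.3 ± 3.42 RPKM (SD, n = 2) without dox and 31.7 ± 4.94 with dox. The kinases TGFBR2 and TGFBR1 measured 7.54 ± 1.00 and 7.06 ± 0.0522 without dox. Of these 18 genes 11 were tested and none was called, with a median log2 fold change of 0.02.

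Over the 6 lists of partner genes, 80 genes were listed and 35 tested. Limma, edgeR and DESeq2 each called 0 of the 35, where limma called 0.0371% of all genes tested. In the same order, 4, 4 and 1 of the 35 passed an unadjusted p under 0.05. That is 11.4%, 11.4% and 2.86% of the 35, where 9.28%, 9.07% and 5.6% of all genes tested passed. In limma the 4 were NOG, BMP8B, LTBP3 and BMP1, of which NOG and LTBP3 are named here after their values were seen. NOG, which encodes the BMP antagonist noggin, had 18, 44, 58 and 49 reads and 0.405, 1.06, 2.01 and 1.43 RPKM, higher in both dox libraries. Limma put its change at 1.36 in log2 units (SE 0.41, adjusted p = 0.311), and the nearest samples, no dox replicate 2 and dox replicate 2, were closer to each other than the no dox replicates were. For LTBP3, another latent TGF-β binding protein, the estimate was 0.32 (adjusted p = 0.492 in limma), and for BMP1 it was -0.29 (adjusted p = 0.533 in limma).

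**Figure D4:**
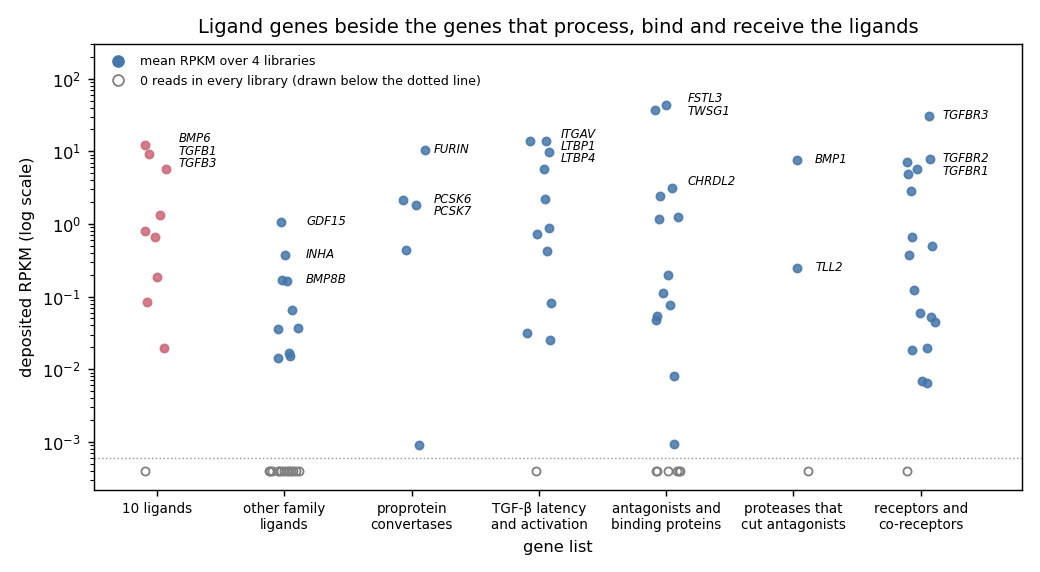
Mean deposited RPKM over 4 libraries, on a log axis, of the 10 ligand genes (red) and of 6 lists of related genes (blue), with open circles for genes with 0 reads and names for the 3 highest genes of each list. FSTL3, TWSG1, TGFBR3, ITGAV and LTBP1 lie above every ligand gene, and the other family ligands lie at or below 1.06 RPKM.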

How the data were processed

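RNA-seq was performed on 4 samples of MIB1-iKO NCI-H838 cells, and samples were grouped by their labels. As described in the methods, ribosomal reads were first discarded, and the authors then aligned single-end reads to GRCh38 with GSNAP and deposited read counts per gene over exons from HTSeqGenie, not normalized. The methods name RefSeq gene models whereas the identifiers are Ensembl. They name a Smart-Seq kit with Nextera XT for low-input RNA and a TruSeq Stranded mRNA kit for regular input. Which of these kits was used for the present samples, and the strand setting of counting, are not given in the sources used here. The deposited RPKM values carry a further scaling per sample by the authors: with no dox replicate 1 set to 1, the factor of no dox replicate 2 was 0.932 (total counts, 0.869), and those of the dox replicates were 0.649 and 0.771 (total counts, 0.653 and 0.699). Levels of different genes were compared on RPKM, and changes were tested on counts.

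Symbols and positions are those of GENCODE, in which 57532 of 58302 identifiers had a symbol. Following the study's methods, genes kept by filterByExpr were scaled by library size, quantile-normalized, weighted by voom and fitted with lmFit and eBayes (limma 3.58.1, R 4.3.3, without covariates), and p-values were adjusted over all 16181 genes by the Benjamini-Hochberg method. The scripts were tested on simulated data. Alternatives were edgeR 4.0.16, DESeq2 1.42.0, other normalizations, filters, RPKM with pseudocounts of 0.1 and 1, a replicate block and each library left out. All 10 ligand genes, MIB1, and in each list the 3 genes with the highest mean RPKM and any gene with an adjusted p of at most 0.05 are named. The members and lists were chosen with earlier results of these data known. The labels do not say what a replicate number stands for, so p-values measure the spread between these samples, and depth, with PCR reads that are not independent molecules, limits the scarce ligands.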

Additional observations from a re-analysis of the deposited data

How the results depend on the processing

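No ligand gene was called under any alternative run. Runs that called 0 genes over the whole table did not call MIB1 either, so the lack of ligand calls in them shows nothing about the ligands. DESeq2 gave no adjusted p for 4 of the 7 ligands tested, so those 4 could not be called in it. The order of the 10 ligands by mean RPKM was kept with summed exon lengths and without each library in turn. It was also kept with RPKM rescaled to total counts, which cannot change the order within a library. The number of genes called over the whole table, 6, was 2 in DESeq2, 0 with no count filter, 0 with log2(RPKM + 0.1), 0 with log2(RPKM + 1), 0 to 0 without each library in turn (in all 4 such fits) and 11 with no minimum fold change. Leaving out a library left 1 sample in a group, which was then assumed to vary like the other group. With fewer samples the test had less power, and for the other settings the cause was not tested. The log2 fold change of BMP2 turned from -0.26 to 0.11 in edgeR, 0.095 in DESeq2 and 0.0022 with log2(RPKM + 1), and ran from -1.43 to 0.70 without each library. TGFB1, at 0.01, turned to -0.0041 in edgeR, -0.0087 with log2(RPKM + 0.1) and -0.0081 with log2(RPKM + 1), and ran from -0.080 to 0.096 without each library, below 0 without no dox replicate 1 or dox replicate 2. TGFB3 ran from -0.18 to 0.15, above 0 without no dox replicate 2 or dox replicate 1. BMP4, BMP6, GDF11 and TGFB2 stayed below 0 in all 13 alternatives.

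With the replicate number as a block, 78 genes were called over the whole table, of which 0 were ligands (lowest adjusted p of a ligand gene 0.298) and 1 was a partner gene, NOG, at 1.22 in log2 units and an adjusted p of 0.0158 in limma. Deviations of same-numbered samples from their group means correlated at 0.134, with only 2 pairs and no label that says the numbers mark a shared batch, so the samples were treated as unpaired.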
